A study of Mus musculus with 64 samples.

Results

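The genes described here are the axon guidance ligands and receptors of the netrin, Unc5, Slit, Robo, semaphorin, neuropilin, plexin, ephrin and Eph families, measured across the mouse inner ear as it forms. Members were matched by a rule on the gene symbol alone, set with earlier results of these data known. Among the 12393 genes with an unambiguous symbol on the array, 56 matched. Of these, 45 were measured above a low-signal filter (at least 2 of the 64 arrays at or above the array's median), out of 9352 genes that passed it. The 11 that did not pass were Ntn3, Robo3, Robo4, Sema6b, Sema7a, Plxna1, Plxnb3, Efna3, Efna5, Epha6 and Ephb6. Their highest normalized signal on any array lay between 33.1 (Plxna1) and 84.5 (Efna5).

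RNA came from embryos of the CBA/J strain, for which the labels give no mutation or treatment, and each array was made from a pool of dissected tissues. There were 32 groups of 2 arrays, and the pools of a group came from different litters. The inner ear epithelium gave 58 arrays in 29 groups. These are the otic placode at E9, the otic vesicle at E9.5 and E10, the cochlear region from E10.5 to E15, the dorsal vestibular region, its endolymphatic duct removed, from E10.5 to E12, and, from E12.5 to E15, the saccule and the utricle with the ampullae. The other 6 arrays hold non-inner ear tissue from around the ear, at E9, pooled over E9.5 to E10.5, and pooled over E11 to E15. All tissue was loosened in dispase, for 8 to 10 minutes up to E10.5 and for 20 to 25 minutes from E11, so stage and enzyme time cannot be told apart across that boundary. Because tissue was pooled and measured in bulk, fewer cells of a type and less RNA per cell cannot be told apart.

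Netrins are secreted ligands, and Unc5 proteins are receptors through which they repel axons. Slits are secreted ligands of Robo receptors, and semaphorins, secreted or held in the membrane, act through plexins, with neuropilins as co-receptors for most of class 3. Ephrins are tied to the membrane, by a lipid anchor in class A and by a membrane-spanning stretch in class B, and bind Eph receptor tyrosine kinases on touching cells. In the ear these families are known for steering the growth of ganglion neurites and for setting tissue boundaries and shaping epithelia, netrin in the forming semicircular canals among them.

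The results turn most on 4 genes, Slit3 and Unc5b, which were low in the saccule, and Epha7 and Efnb2, which were high in the cochlea. Their promoter sequences are shown so that the stretch before each gene's annotated start can be compared. Each is the 250 bases before the start, from RefSeq on GRCm38.p6, 5′ to 3′ on the gene's strand, with every CG dinucleotide in capitals. The Slit3 stretch is chr11:35121206-35121455 on the plus strand, that of Unc5b chr10:60831582-60831831 on the minus strand, that of Epha7 chr4:28812881-28813130 on the plus strand, and that of Efnb2 chr8:8661243-8661492 on the minus strand.
Slit3: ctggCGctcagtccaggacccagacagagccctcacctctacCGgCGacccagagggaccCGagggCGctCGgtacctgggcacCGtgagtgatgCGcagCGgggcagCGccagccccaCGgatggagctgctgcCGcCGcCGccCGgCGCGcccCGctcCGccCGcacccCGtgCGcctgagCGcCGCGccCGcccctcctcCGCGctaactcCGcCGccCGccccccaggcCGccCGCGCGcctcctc
Unc5b: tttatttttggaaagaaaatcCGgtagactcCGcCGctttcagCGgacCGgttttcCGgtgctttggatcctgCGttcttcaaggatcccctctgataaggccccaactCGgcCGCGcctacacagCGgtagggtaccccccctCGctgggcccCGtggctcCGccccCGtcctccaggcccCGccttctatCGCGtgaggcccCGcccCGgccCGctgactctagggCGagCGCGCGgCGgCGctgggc
Epha7: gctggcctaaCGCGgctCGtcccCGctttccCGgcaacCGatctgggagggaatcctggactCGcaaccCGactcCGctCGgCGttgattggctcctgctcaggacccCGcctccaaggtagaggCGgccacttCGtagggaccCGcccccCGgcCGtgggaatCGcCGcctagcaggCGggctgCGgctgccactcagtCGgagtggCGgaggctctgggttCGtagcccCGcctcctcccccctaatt
Efnb2: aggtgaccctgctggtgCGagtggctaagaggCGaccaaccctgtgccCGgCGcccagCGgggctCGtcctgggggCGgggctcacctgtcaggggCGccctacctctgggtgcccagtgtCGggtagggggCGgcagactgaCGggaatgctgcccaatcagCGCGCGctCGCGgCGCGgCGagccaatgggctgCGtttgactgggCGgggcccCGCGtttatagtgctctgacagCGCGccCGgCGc
All 4 are rich in CG, with 35 in Slit3, 27 each in Unc5b and Efnb2 and 25 in Epha7. The median over 7515 filtered genes with a promoter in the table was 15, and 19 percent of those genes had 25 or more. The members as a set did not stand far from this, with a median of 16 over the 49 with a promoter. The letters TATAAA, searched on both strands, occurred in the Efnb2 stretch and in 12.4 percent of all 32851 promoters of this length. The E-box letters CANNTG occurred in Efnb2 and in 66.2 percent of promoters, and not in the other 3 stretches. The table holds 2 starts for Epha7, of which the first in the table is shown.

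The deposited values are linear MAS5 probe set intensities with a floor of 10, on which 5.43 to 12 percent of an array's values lie. They were quantile normalized across the 64 arrays, and the resulting normalized signal is the level given below. Differences are on the scale log2(signal + 16), which understates changes of weakly detected genes, and no level of one gene is set against that of another. A gene was called when its difference was at least 1 log2 with an adjusted p under 0.05 in limma, fitted over all 9352 genes. Replicate arrays correlated at 0.947 to 0.991 over probe sets, and 2 arrays a group limit the precision.

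**Figure D1:**
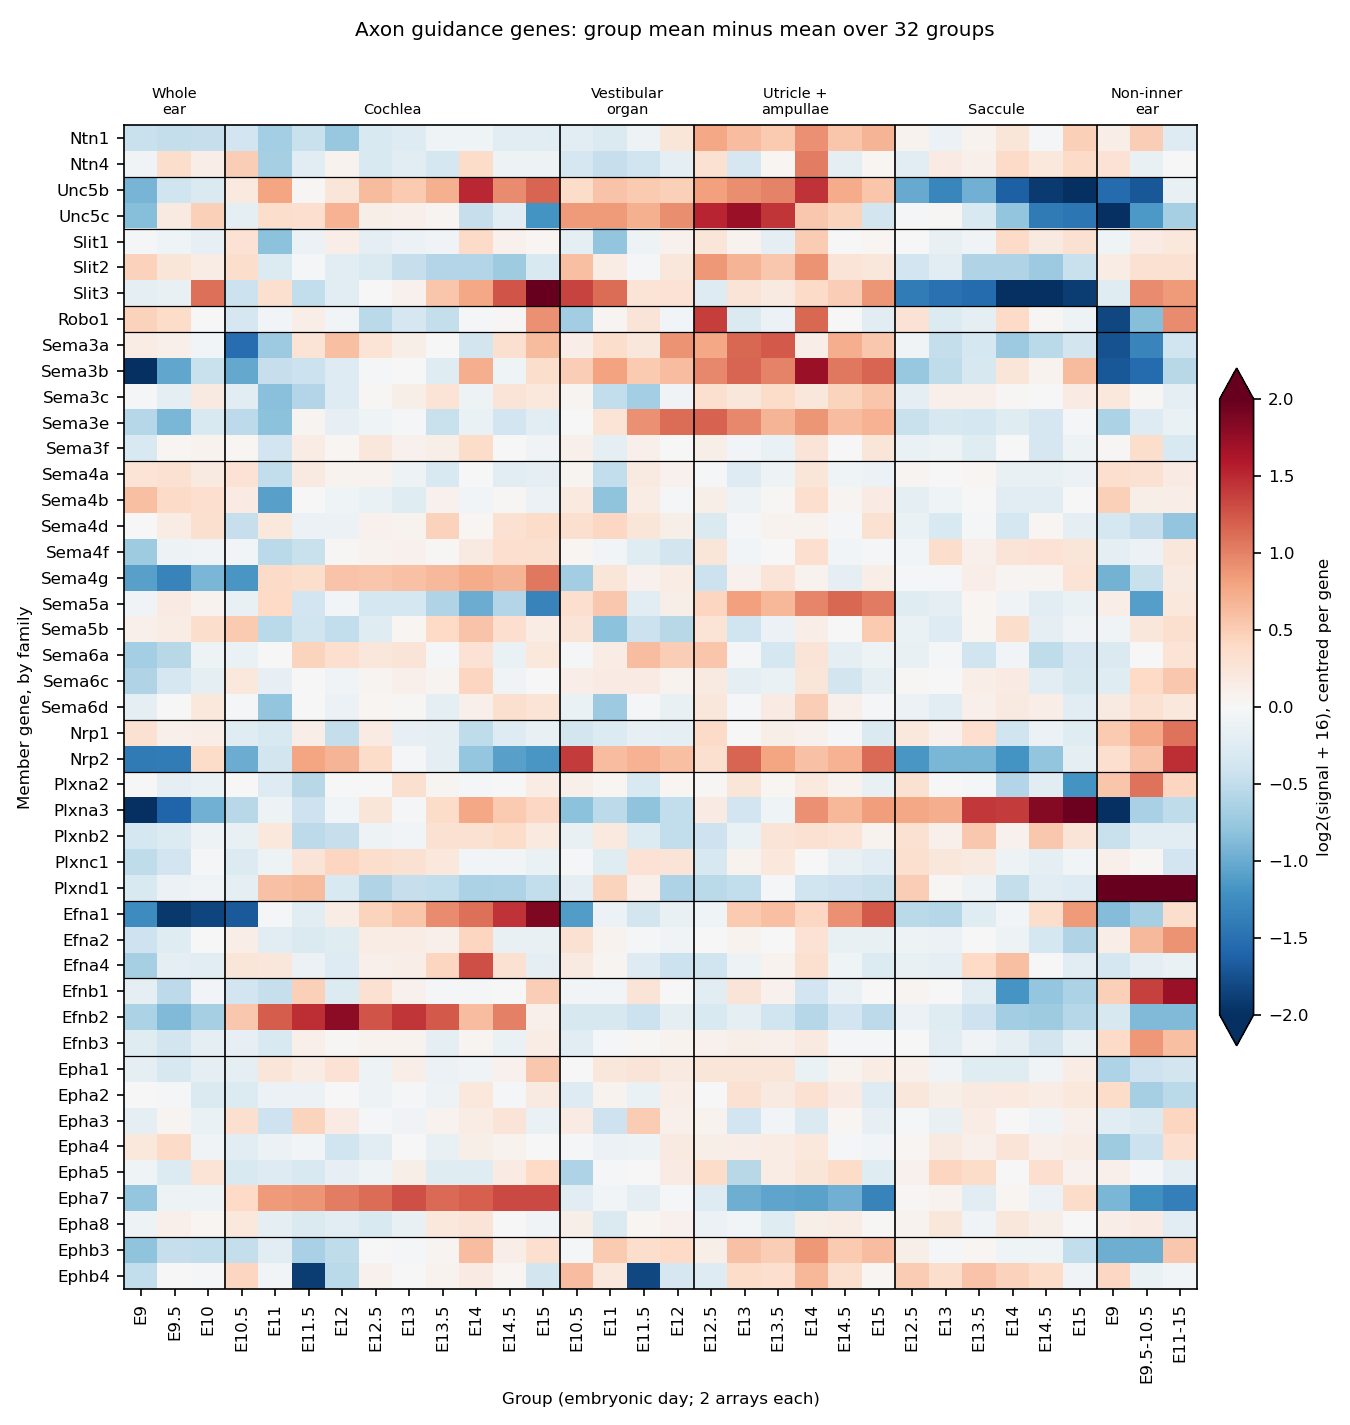
Mean log2(signal + 16) of each of the 45 measured genes (rows, by family) in each of the 32 groups (columns, 2 arrays each), minus the gene's mean over all groups. The colour scale ends at -2 and 2, beyond which values share the end colour. Slit3 and Unc5b are low across the saccule, Efnb2 and Epha7 are high across the cochlea, and Plxnd1 is high in the 3 non-inner ear groups.

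Of the 45 measured genes, 23 were called in at least 1 of 14 comparisons and 22 in none. Unc5c was called most often, in 9 comparisons. The 22 without a call include both measured netrins (Ntn1 and Ntn4), Slit1, 5 of the 7 measured EphA receptors and 8 of the 10 measured membrane semaphorins. The means of these 22 genes ranged by 0.56 (Epha8) to 1.94 (Efna4) log2 over the inner ear groups.

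Against the non-inner ear tissue, the early ear differed in Unc5 receptors and Sema3a, and at E9 in neuropilin 2. At E9, 3 of the 45 genes were higher in the placode (Robo1, Sema3a, Unc5c) and 2 lower (Plxnd1, Nrp2), where 2.71 percent of all genes were higher and 3.23 percent lower (5.93 percent in either direction). From E9.5 to E10.5, 5 were higher in the ear (Unc5b, Unc5c, Sema5a, Epha7, Sema3a) against 3.72 percent of all genes, and 5 lower (Plxnd1, Efnb1, Plxna2, Efnb3, Efna1) against 4.68 percent, or 10 against 8.4 percent in either direction. From E11 to E15, 2 were higher (Epha7, Efnb2) against 8.47 percent of all genes and 4 lower (Plxnd1, Efnb1, Nrp2, Nrp1) against 7.14 percent, or 6 against 15.6 percent in either direction. Plxnd1, counted as lower in each window, passed the low-signal filter through the non-inner ear arrays alone. Its place in the lower counts was therefore built in, and only the other genes named there bear on the shares over all genes. The median difference of the 45 genes was -0.23, -0.05 and -0.07 in the 3 windows, beside -0.05, 0.01 and -0.01 over all genes.

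Scaling moved these counts in direction. On the deposited scale, the median over all genes moved to 0.32, 0.33 and 0.13 in the 3 windows. The genes were then 4 higher and 2 lower at E9, 8 higher and 2 lower at E9.5 to E10.5, and 4 higher and 4 lower at E11 to E15. Of all genes called, 87.4, 74.2 and 68.1 percent were higher in the ear with the deposited values, beside 45.6, 44.3 and 54.2 percent after quantile normalization.

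The 2 tissues also differed in cell type markers. All 12 epithelial markers were higher in the ear at E9.5 to E10.5, and 11 of 12 in each of the other windows, and otic epithelial markers were higher for 4, 5 and 4 of 8. Endothelial markers were lower in the ear for 4, 5 and 7 of 9 genes in the 3 windows, mesenchymal markers for 6, 9 and 13 of 13, and neuronal markers for 3, 9 and 9 of 11, with 1 neuronal marker higher from E11. Hindbrain and neural tube markers were lower for 6, 6 and 5 of 9, with median differences of -2.57, -3.4 and -1.07 log2. Red blood cell markers were lower for 0, 3 and 3 of 5, and macrophage markers for 1, 1 and 2 of 5. Neural crest and Schwann cell markers were higher for 1, 2 and 2 of 6, and lower for 1 in each window. From E11 to E15, 4 of 7 cartilage markers were also lower in the ear, and 7 of 10 hair cell markers higher. In each earlier window 1 cartilage marker was higher. The summed signal of the 9 endothelial markers was 604 to 1141 on ear arrays and 1740 to 2132 on non-inner ear arrays, and none was at the floor on every ear array. The part of these markers in the differences of the guidance genes was not tested.

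**Figure D2:**
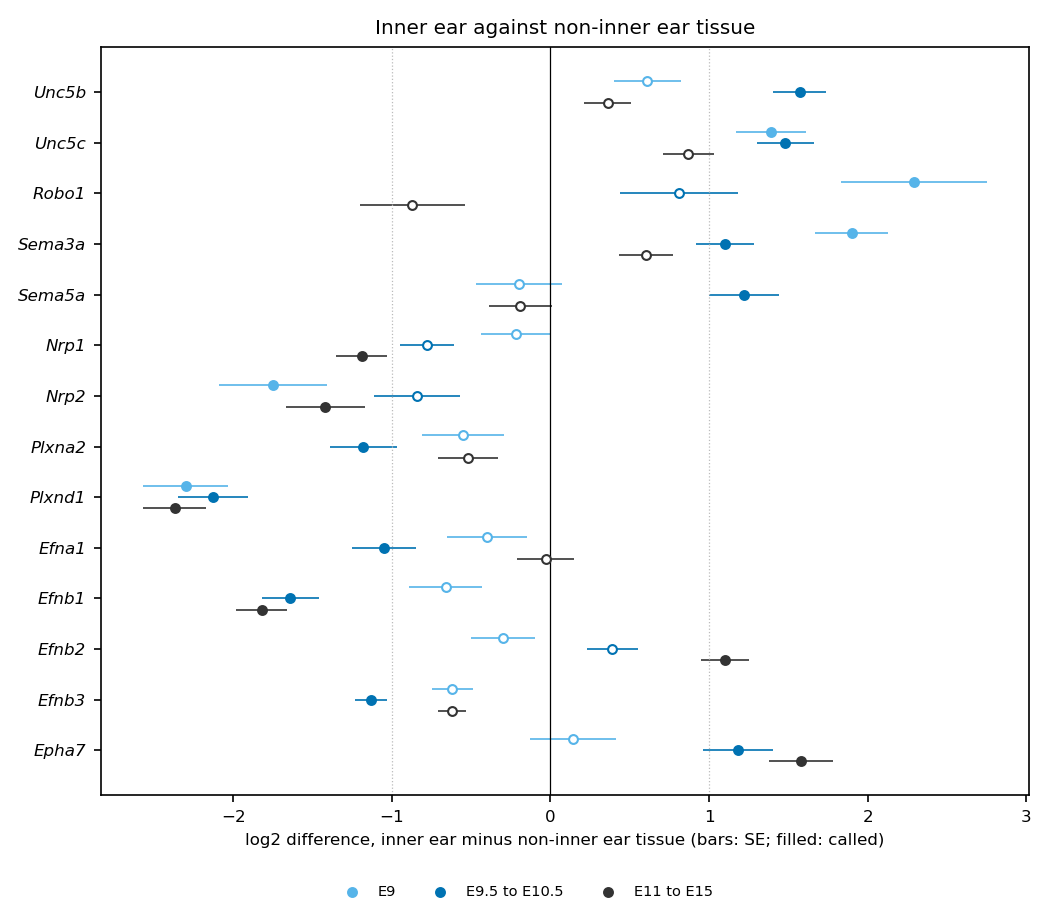
Difference in log2(signal + 16), inner ear minus non-inner ear tissue, with its standard error, for the 14 genes called in at least 1 of the 3 windows (colours). Filled points are called, and dotted lines mark 1 log2 in each direction. Plxnd1 lies below -2 in all 3 windows, while Robo1 is called at E9 only.

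Over time, Efna1 rose in the cochlea, the utricle with ampullae and the saccule, by both of its kept probe sets. Plxna3 rose and Unc5c fell in the same 3 organs, each by 1 of 2 kept probe sets. The second set of Plxna3 was called in none of them, and that of Unc5c had the opposite sign in the cochlea (0.94). In the non-inner ear tissue, 13 of the 45 were higher at E11 to E15 than at E9 and 0 lower, where 10.2 percent of all genes were higher and 9.51 percent lower (19.7 percent in either direction). At an unadjusted p under 0.05 in limma, with no size limit, 5 were lower there, and with the values as deposited the count was again 13 and 0. In the whole ear, 5 were higher at E10 than at E9 (Nrp2, Plxna3, Sema3b, Unc5c, Slit3) and 0 lower, against 3.73 and 1.56 percent of all genes (5.29 percent together). At an unadjusted p under 0.05 in limma, 1 gene was lower there, and the deposited values also gave 5 and 0. In the cochlea, fitted from E10.5 to E15, 7 rose (Efna1, Slit3, Sema4g, Sema3a, Sema3b, Plxna3, Unc5b) and 2 fell (Sema5a, Unc5c), against 8.06 and 6.89 percent (14.9 percent together). With the deposited values, where the median of all genes in this comparison moved from 0.06 to 0.24, 9 rose and 0 fell, since Sema5a and Unc5c (both -0.98) missed the size limit. After quantile normalization 7 genes, both of these among them, were lower at an unadjusted p under 0.05 in limma. Of all genes called, 66.7 percent rose with the deposited values, beside 53.9 percent after quantile normalization.

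Between E10.5 and E12 the vestibular organ had 1 rise (Sema3e) and 2 falls (Ephb4, Slit3), against 2.23 and 1.79 percent of all genes (4.02 percent together). With the deposited values it had the same counts of members, while the share of all called genes that rose went from 55.6 to 70.8 percent. The utricle with ampullae from E12.5 to E15 had 2 rises (Efna1, Plxna3) and 1 fall (Unc5c), against 5.04 and 2.49 percent (7.53 percent together). The saccule had 3 rises (Efna1, Plxna3, Sema3b) and 3 falls (Unc5c, Unc5b, Plxna2), against 4.59 and 2.49 percent (7.08 percent together). Hair cell markers rose with age for 7 of 10 genes in the utricle with ampullae and 9 of 10 in the saccule. In each of these organs 2 of 11 neuronal markers rose and 3 fell. Of 5 red blood cell markers, 2 fell in the utricle, and 3 fell and 1 rose in the saccule. Of 13 mesenchymal markers, 1 rose and 1 fell in the utricle, and 1 rose and 3 fell in the saccule. In the utricle 2 of 7 cartilage markers rose. Otic epithelial markers rose for 3 and 2 of 8. In the cochlea, from E10.5 to E15, 7 of 11 neuronal markers fell and 1 rose, 3 of 5 red blood cell markers fell and 1 rose, 5 of 8 otic epithelial markers rose, and 4 of 10 hair cell markers rose and 2 fell. Of 13 mesenchymal markers in the cochlea 3 rose and 3 fell. Their summed signal there was 1005 to 2147 at E10.5, 5364 to 5818 at E14.5 and 8429 to 9280 at E15. In the vestibular organ 4 of 11 neuronal markers fell and 1 rose, and 3 of 13 mesenchymal markers rose. In the whole ear 3 of 11 neuronal and 4 of 8 otic epithelial markers were higher at E10 than at E9. The part of these markers in the changes of the guidance genes was not tested.

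Between organs, Slit3, Unc5b and Epha7 had the largest differences among the measured genes. At E10.5 to E12, Efnb2 was higher and Sema3b lower in the cochlea than in the vestibular organ, 1 gene in each direction, where 0.535 percent of all genes were higher and 0.877 percent lower (1.41 percent together). With the deposited values, which moved the median of all genes from -0.01 to -0.27, the count was 1 higher and 6 lower, and 11 percent of all called genes were higher in place of 37.9 percent. At E12.5 to E15, 2 genes were higher in the cochlea than in the utricle with ampullae and 6 lower, against 1.2 and 1.87 percent of all genes (3.07 percent together). Against the saccule, 5 were higher in the cochlea and 0 lower, where 1.67 and 2.11 percent of all genes were (3.77 percent together). At an unadjusted p under 0.05 in limma, 6 were lower there, and the deposited values gave 5 and 1. The saccule had 1 gene higher and 8 lower than the utricle with ampullae, against 1.2 and 1.52 percent (2.72 percent together). The change from E12.5 to E15 differed between the cochlea and the utricle with ampullae for 4 of the 45 genes, upward in the cochlea for Slit3 and Robo1 and downward for Nrp2 and Sema5a, where 1.73 percent of all genes differed upward and 2.13 percent downward (3.86 percent together). The 3 organ comparisons of E12.5 to E15 share samples in pairs, so their values are given side by side and not as independent results.

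**Figure D3:**
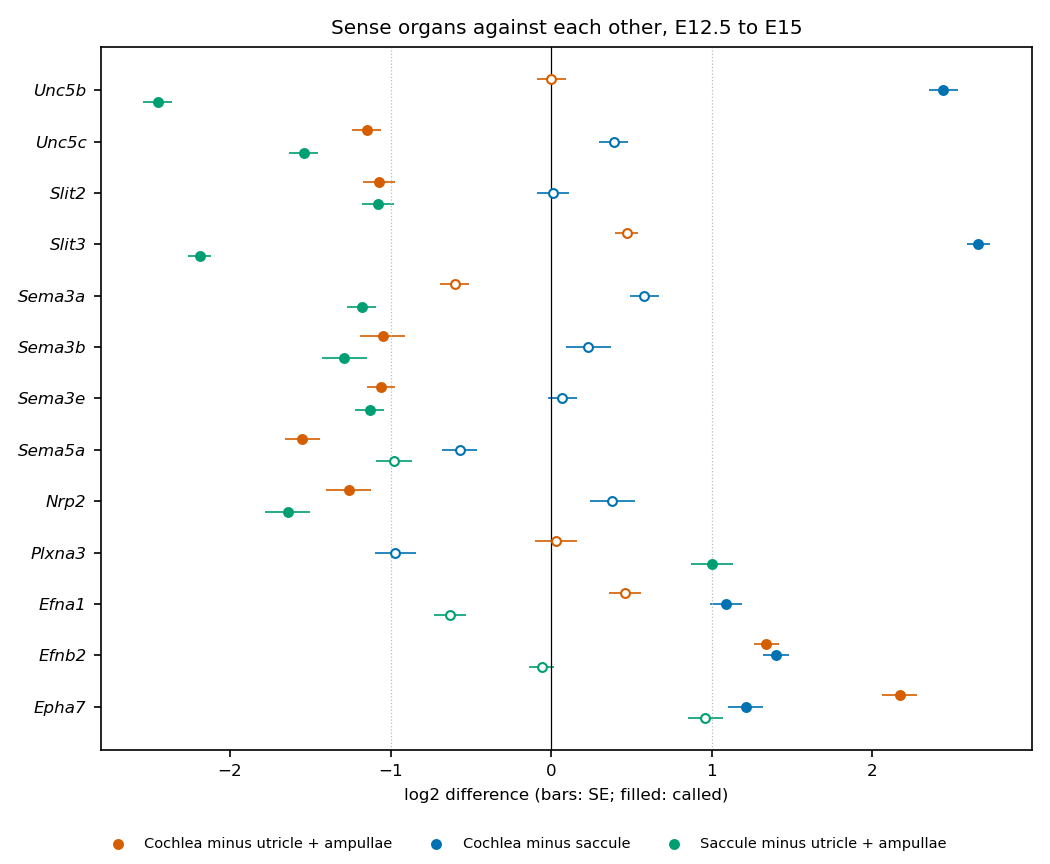
Difference in log2(signal + 16) between sense organs averaged over E12.5 to E15, with its standard error, for the 13 genes called in at least 1 of the 3 comparisons (colours). Filled points are called, and dotted lines mark 1 log2. Slit3 and Unc5b lie near 2.5 for the cochlea against the saccule and below -2 for the saccule against the utricle with ampullae, and Epha7 and Efnb2 lie above 1 for the cochlea against both.

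Of the netrin receptors, Unc5b, which mediates repulsion by netrin and is also known from blood vessel tips, separated the saccule from the other organs. Its normalized signal over E12.5 to E15 had a lowest, median and highest value of 275, 546 and 1116 on the 12 saccule arrays, 2122, 2797 and 4433 on the 12 utricle arrays, and 2215, 2826 and 4558 on the 12 cochlea arrays. Every saccule array lay below every array of the other organs. The difference was 2.44 ± 0.09 log2 (SE) for the cochlea minus the saccule (adjusted p = 1.02e-24) and -2.45 ± 0.09 for the saccule minus the utricle with ampullae (adjusted p = 7.59e-25). The cochlea and the utricle did not differ detectably in it (0 ± 0.09, adjusted p = 0.998).

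Unc5b also fell within the saccule, by 1.32 ± 0.18 log2 from E12.5 to E15 (adjusted p = 1.8e-07). The saccule replicates read 963 and 634 at E12.5, 541 and 724 at E13, 1116 and 579 at E13.5, 552 and 451 at E14, 381 and 441 at E14.5, and 318 and 275 at E15. The values of E14.5 and E15 lay below all earlier ones. In the cochlea it rose by 1.01 ± 0.15 from E10.5 to E15 (adjusted p = 2.26e-07), from 1754 and 1852 to 3655 and 3490, with 4519 and 4558 at E14. This change lay just above the size limit for a call, and the course was not steady. The cochlear arrays read 2749 and 2746 at E11, where the dispase time also changed, and 1969 and 1319 at E11.5. Earlier, its signal was 1257 and 1137 in the vesicle at E9.5 and 501 and 452 in the non-inner ear tissue of E9.5 to E10.5, and the ear was higher by 1.57 ± 0.17 in that window (adjusted p = 8.17e-10).

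Unc5c, a netrin receptor best known from cerebellar and motor axons, had its highest levels in the utricle with ampullae. Its signal there was 1111 and 968 at E12.5, 1333 and 1070 at E13, 919 and 1020 at E13.5, 507 and 518 at E14, 487 and 472 at E14.5, and 271 and 263 at E15. No later utricle array reached the levels of the 3 younger stages, and the fitted change was -2.04 ± 0.19 log2 (adjusted p = 4.93e-11). In the saccule it went from 420 and 278 at E12.5 to 133 and 105 at E15, a fall of 1.69 ± 0.19 (adjusted p = 3.45e-09). The saccule was lower than the utricle by 1.54 ± 0.09 and the cochlea by 1.15 ± 0.09 over these stages (adjusted p = 2.14e-17 and 1.32e-13).

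In the cochlea Unc5c fell by 1.04 ± 0.16 log2 from E10.5 to E15 (adjusted p = 4.63e-07). Its cochlear signal was 360 and 254 at E10.5, 540 and 619 at E12 and 164 and 123 at E15, so the fall followed a peak. At E9 it was 158 and 221 in the placode and 71.1 and 52.8 in the non-inner ear tissue (1.39 ± 0.22, adjusted p = 1.48e-05). The gene has a second kept probe set that does not follow the first. It gave 0.94 for the cochlear change, 0 for the cochlea minus the utricle and -0.04 for the placode minus non-inner ear tissue, and -0.62 and -0.5 for the changes in the utricle and the saccule, none of them called the same way. These Unc5c results therefore rest on 1 of 2 probe sets.

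Their ligand Ntn1 was not called in any comparison. Its largest differences were -0.89 ± 0.16 log2 for the ear minus the tissue around it at E9.5 to E10.5 (adjusted p = 3.73e-05) and -0.87 ± 0.08 for the cochlea minus the utricle (adjusted p = 3.43e-11). It differed by -0.58 ± 0.21 for the placode minus the tissue around it (adjusted p = 0.0362) and by -0.55 ± 0.08 for the saccule minus the utricle (adjusted p = 1.14e-06). The signals at E13 were 118 and 126 in the utricle with ampullae and 64.9 and 70.1 in the saccule. Ntn4, a netrin of basement membranes, differed by -0.26 for the cochlea minus the utricle and by 0.02 for the saccule minus the utricle.

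**Figure D4:**
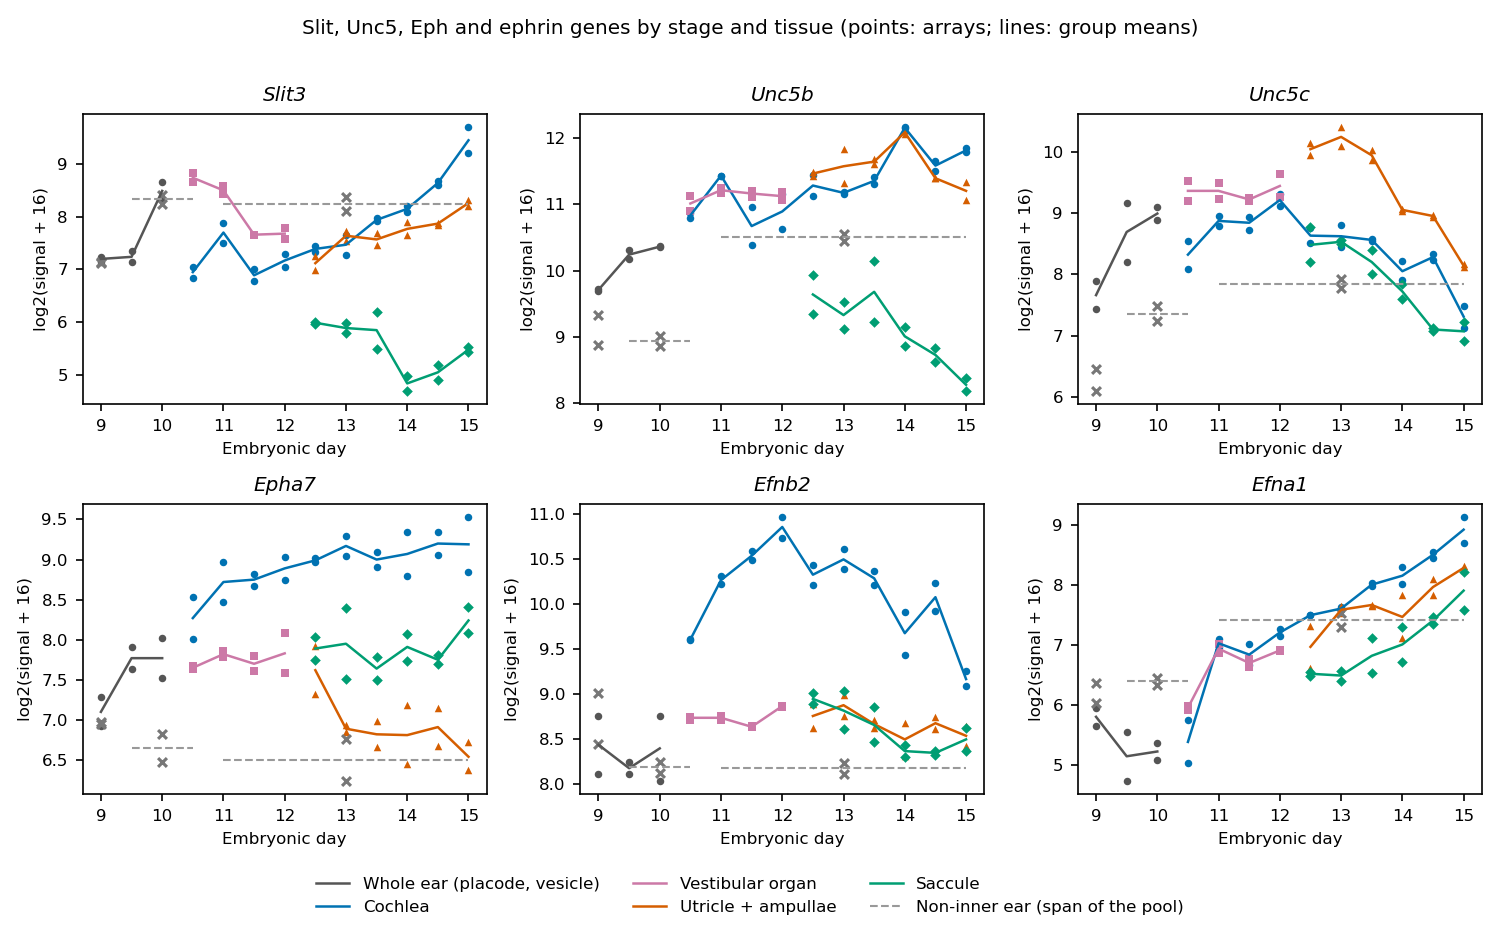
log2(signal + 16) by embryonic day for Slit3, Unc5b, Unc5c, Epha7, Efnb2 and Efna1. Points are single arrays, solid lines join group means of a tissue, and a dashed line spans the stages of a pooled non-inner ear group, whose 2 arrays are crosses. The saccule lies below the other organs in Slit3 and Unc5b, and the cochlea above them in Epha7 and Efnb2.

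Among the secreted Slit ligands, Slit3 had the largest organ difference of all the genes described. Over E12.5 to E15 its signal had a lowest, median and highest value of 10, 29.8 and 57.5 in the saccule, 111, 194 and 302 in the utricle with ampullae, and 139, 247 and 818 in the cochlea, 12 arrays each. No saccule array overlapped the others, and 1 of them was at the floor. The cochlea was higher than the saccule by 2.66 ± 0.07 log2 (adjusted p = 7.75e-28), and the saccule lower than the utricle by 2.19 ± 0.07 (adjusted p = 2.44e-25).

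Slit3 rose in the cochlea by 2.07 ± 0.13 log2 from E10.5 to E15 (adjusted p = 6.73e-17). The cochlear replicates read 116 and 98.8 at E10.5, 220.3 and 166 at E11, 113 and 93.7 at E11.5, 142 and 115 at E12, 158 and 147 at E12.5, 187 and 139 at E13, 237 and 224 at E13.5, 257 and 280 at E14, 392 and 375 at E14.5, and 818 and 573 at E15. From E12 on, the mean of each stage lay above that of the stage before, and both E15 arrays stood above all others. Within the longer dispase time alone, E11 to E15, the rise was 1.97 ± 0.13 (adjusted p = 1.28e-15).

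In the other tissues Slit3 took other courses. In the utricle with ampullae it went from 111 and 136 at E12.5 to 302 and 281 at E15, a difference of 0.94 ± 0.15 that stayed under the size limit for a call. In the saccule it went from 46.7 and 48 to 27.3 and 30.1 (-0.86 ± 0.15, also not called). In the younger vestibular organ it fell by 1.21 ± 0.17 (adjusted p = 2.25e-06), from 388 and 435 at E10.5 to 204 and 175 at E12, and this fell under the size limit (-0.82 ± 0.18, adjusted p = 0.00202) when only E11 to E12 were used. In the whole ear it rose by 1.29 ± 0.18 between E9, at 136 and 126, and E10, at 387 and 304 (adjusted p = 1.52e-06).

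Slit2, the repellent best known from the midline, was lower in the cochlea than in the utricle with ampullae by 1.07 ± 0.1 log2 and in the saccule by 1.08 ± 0.1 (adjusted p = 5.44e-12 and 5.01e-12). Its signal ran from 96.2 to 160.2 in the cochlea, 90.2 to 174 in the saccule and 197 to 492 in the utricle, with medians of 117, 109 and 238. The utricle arrays did not overlap those of the other organs. Slit1 was not called anywhere, and differed by -0.09 for the cochlea minus the utricle and by -0.09 for the cochlea minus the saccule.

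Robo1, the only measured Slit receptor, was higher in the placode than around it at E9, at 336 and 185 against 42.4 and 34.8 (2.29 ± 0.46 log2, adjusted p = 0.000368). In the non-inner ear tissue it rose by 2.77 ± 0.46 to 541 and 232 at E11 to E15 (adjusted p = 4.15e-06). Its replicates often disagreed, as in the utricle with ampullae at E14, where they read 837 and 197, and at E12.5, where they read 693 and 343. Its change from E12.5 to E15 differed between the cochlea (1.25) and the utricle with ampullae (-0.83), by 2.08 ± 0.55 (adjusted p = 0.013). That call was lost without cochlea E15 replicate 2, at 1.72, or without utricle E12.5 replicate 1, with adjusted p up to 0.0974.

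**Figure D5:**
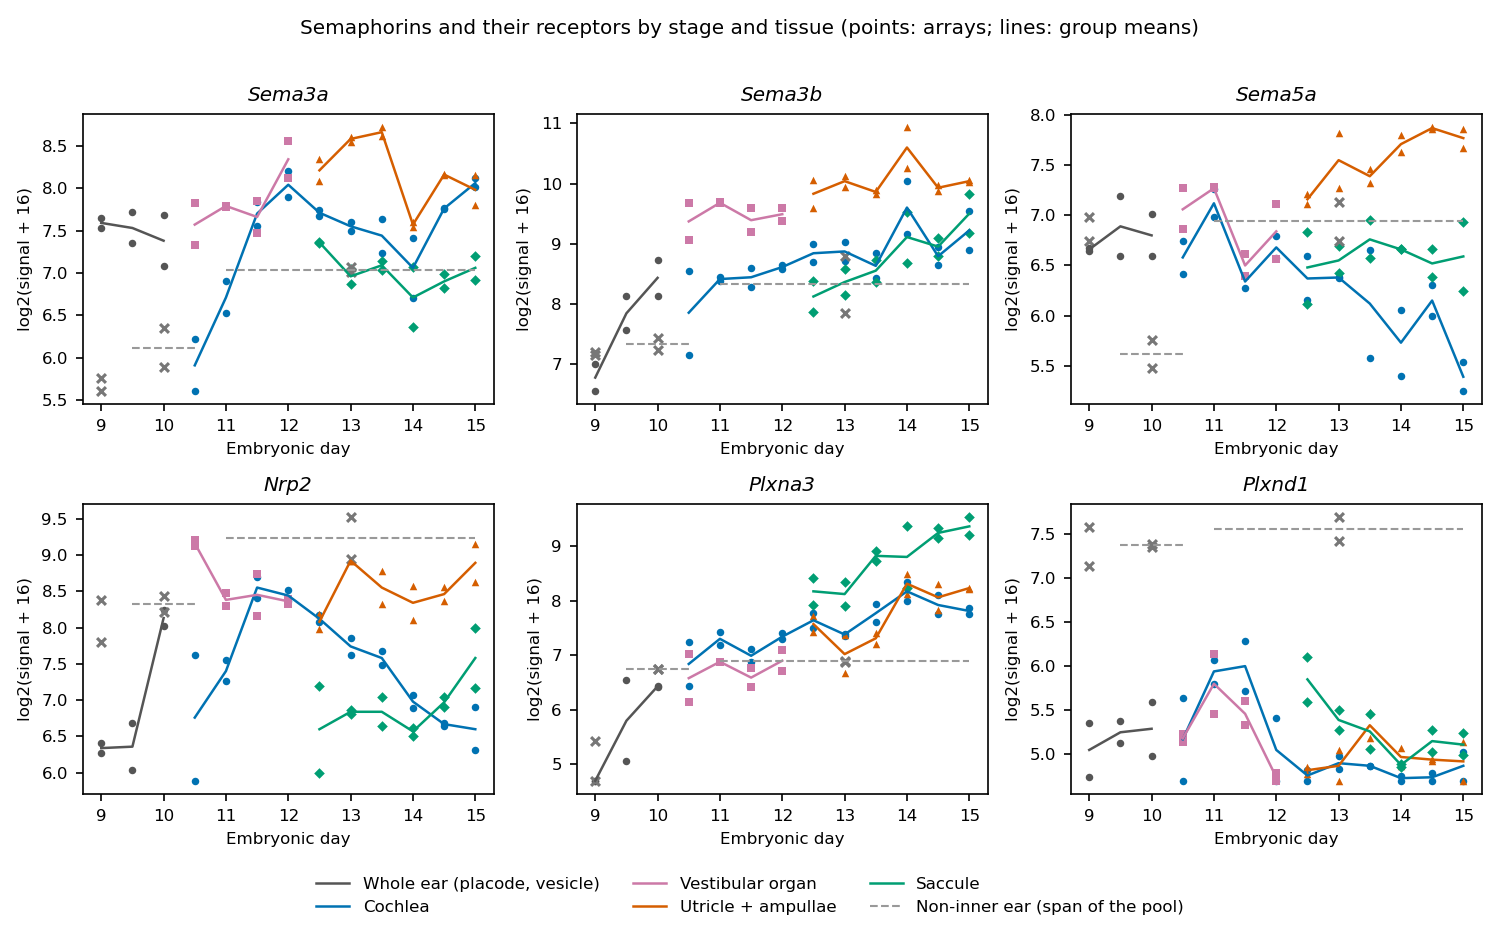
log2(signal + 16) by embryonic day for Sema3a, Sema3b, Sema5a, Nrp2, Plxna3 and Plxnd1. Points are single arrays, solid lines join group means of a tissue, and a dashed line spans the stages of a pooled non-inner ear group, whose 2 arrays are crosses. Plxnd1 is higher in non-inner ear tissue than on any ear array, and Nrp2 and Sema5a part between the cochlea and the utricle with ampullae as stages advance.

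Of the secreted class 3 semaphorins, 3 of 5 were lower in the saccule than in the utricle with ampullae. Sema3a, a repellent of sensory axons, had a lowest, median and highest signal of 66.2, 116 and 149 in the saccule and 170, 271 and 406 in the utricle, 12 arrays each and without overlap (-1.18 ± 0.09 log2, adjusted p = 2.05e-13, with -0.85 and no call in its other kept probe set). Sema3e, a ligand that acts on plexin D1 without a neuropilin, had 42.7, 73 and 90 in the saccule, 53.9, 72.8 and 114 in the cochlea and 132, 167 and 263 in the utricle, whose arrays lay above all those of the other organs. It was lower than in the utricle by 1.13 ± 0.09 in the saccule and by 1.06 ± 0.09 in the cochlea, and its other kept probe sets had the same sign. Sema3b was lower than in the utricle by 1.29 ± 0.14 in the saccule and by 1.05 ± 0.14 in the cochlea. Its other 2 kept probe sets gave -1.05 and -0.54 for the saccule and -1.07 and -0.23 for the cochlea, with 1 call in each. Sema3c and Sema3f were called in no comparison.

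Earlier, Sema3a was higher in most ear tissues than around them, but not in the cochlea of E10.5. At E9 it read 169 and 185 in the placode and 32.9 and 38.3 in the non-inner ear tissue, higher by 1.9 ± 0.23 log2 (adjusted p = 5.89e-08), and its other kept probe set gave 2.05. From E9.5 to E10.5 the ear was higher by 1.1 ± 0.18 (adjusted p = 9.32e-06), with the non-inner ear arrays at 43.1 and 65.8. Vesicle arrays ran from 119.1 to 194.9, and the vestibular ones of E10.5 read 144.5 and 210.4. The cochlear arrays of E10.5, at 32.8 and 58.4, were not above the non-inner ear ones. In the cochlea Sema3a then read 76.2 and 103 at E11, 222 and 277 at E12, 88.7 and 154 at E14, and 262 and 241 at E15. The fitted rise was 1.17 ± 0.16, but the course was not steady, and E12 was already near E15. The low E10.5 arrays had the shorter dispase time. The other probe set of Sema3a gave 0.67 for that rise, without a call.

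Sema3b rose in the whole ear by 1.65 ± 0.35 log2, from 112 and 77.7 at E9 to 264 and 407 at E10 (adjusted p = 0.000556). Its other 2 kept probe sets gave 0.63 and 0.8. At E10.5 to E12 it was lower in the cochlea than in the vestibular organ by 1.16 ± 0.17 (adjusted p = 2.62e-06). The cochlear arrays ran from 126 to 384 and the vestibular ones from 518 to 815, without overlap. Without cochlea E10.5 replicate 2, the array at 126, the difference was -0.98 and no longer called. The other 2 kept probe sets of Sema3b gave -0.75 and -0.36 for this comparison, without a call. In the saccule it rose by 1.31 ± 0.29 from 316 and 218 at E12.5 to 562 and 887 at E15 (adjusted p = 0.000587). In the cochlea it rose by 1.14 ± 0.24 (adjusted p = 0.000118), with 0.14 and 0.65 and no call in the other probe sets.

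Sema3e also rose in the vestibular organ, from 91.7 and 86.1 at E10.5 through 105 and 120.2 at E11 and 187 and 180 at E11.5 to 209 and 216 at E12. Each stage lay above the one before it, and the fitted change was 1.2 ± 0.22 log2 (adjusted p = 0.000105). Over E11 to E12 alone it was 0.83 ± 0.23 (adjusted p = 0.0124).

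Among the 10 measured membrane semaphorins, Sema5a and Sema4g were called and the other 8 were not. Sema5a, a transmembrane semaphorin with thrombospondin repeats, was lower in the cochlea than in the utricle with ampullae. Its signal had a lowest, median and highest value of 22, 53 and 84.6 in the cochlea and 122, 185 and 220 in the utricle, without overlap (-1.55 ± 0.11 log2, adjusted p = 8.68e-15). It fell in the cochlea by 1.21 ± 0.19 (adjusted p = 1.26e-06), from 69 and 91.2 at E10.5 and 110 and 138 at E11 to 30.5 and 22 at E15. With the deposited values this fall was no longer called. At E9.5 to E10.5 it was higher in the ear than around it by 1.22 ± 0.22 (adjusted p = 2.71e-05), where the non-inner ear arrays read 28.7 and 38.1.

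Sema4g, a class 4 semaphorin, rose in the cochlea by 1.33 ± 0.13 log2 (adjusted p = 2.66e-11). Its signal was 29.3 and 17.3 at E10.5, 103 and 91.1 at E11 and 173 and 157 at E15, so most of the rise lay between E10.5 and E11, where the dispase time also changed. From E11 to E15 alone the change was 0.55 ± 0.13 (adjusted p = 0.000598), under the size limit for a call.

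Of the neuropilins, Nrp2, co-receptor of class 3 semaphorins and of VEGF-C, varied by tissue and stage. In the whole ear it rose by 1.79 ± 0.34 log2, from 61.2 and 68.8 at E9 through 86.5 and 50 at E9.5 to 286 and 245 at E10 (adjusted p = 0.000168). The placode was lower than the tissue around it, which read 318 and 206 at E9 (-1.75 ± 0.34, adjusted p = 0.00024). From E11 to E15 the ear was lower by 1.42 ± 0.25 (adjusted p = 5.75e-06), with the non-inner ear arrays at 475 and 716.

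In the cochlea Nrp2 reached 399 and 321 at E11.5 and was 272 and 253 at E12.5, 217 and 181 at E13, 162 and 190 at E13.5, 102 and 118 at E14, 84.2 and 87.3 at E14.5, and 103 and 63.3 at E15. It fell by 1.63 ± 0.29 log2 from E12.5 (adjusted p = 2.93e-05), with the highest values at the earliest of these stages. In the utricle with ampullae it was 236 and 276 at E12.5 and 551 and 379 at E15 (0.35 ± 0.29, not called), and the changes of the 2 organs differed by -1.98 ± 0.41 (adjusted p = 0.0012). Averaged over these stages, it was lower than in the utricle by 1.26 ± 0.14 in the cochlea and by 1.64 ± 0.14 in the saccule (adjusted p = 1.11e-09 and 1.13e-12).

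Nrp1, co-receptor of class 3 semaphorins and of VEGF-A, was lower in the ear than around it from E11 to E15 by 1.19 ± 0.16 log2 (adjusted p = 3.21e-08). The 48 ear arrays ran from 41.5 to 141 with a median of 66.3, below the non-inner ear arrays at 168 and 184. Between organs it differed by 0.23 or less in size.

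Of the plexins, Plxnd1, a semaphorin receptor known chiefly from endothelium, was near or at the floor throughout the ear. The 58 ear arrays ran from 10 to 62.2 with a median of 16.9, and the 6 non-inner ear arrays from 124 to 190.3 with a median of 153, without overlap. Plxnd1 passed the low-signal filter through the 6 non-inner ear arrays and no ear array, so a difference was built in, and its values are given as a description with no p. The ear minus the tissue around it was -2.3 ± 0.27, -2.13 ± 0.22 and -2.37 ± 0.2 log2 in the 3 windows. From E11, 8 of 48 ear arrays were at the floor, so the differences understate the gap. The endothelial markers given above were lower in the ear in the same windows.

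Plxna3, a receptor for class 3 semaphorins with neuropilin 2, went up in every series of stages for which it was called. It was at the floor on both placode arrays at E9 and read 68.8 and 71.1 at E10 (1.73 ± 0.33 log2, adjusted p = 0.000177). In the saccule it read 327 and 227 at E12.5 and 721 and 573 at E15, a rise of 1.33 ± 0.28 (adjusted p = 0.00027). In the utricle with ampullae it rose by 1.06 ± 0.28, from 194 and 157 to 281 and 287 (adjusted p = 0.00323), with the highest array at E14, at 340.3, and without the E14 arrays the change was 0.98. The saccule was higher than the utricle by 1 ± 0.13, at the limit of a call and not called without any 1 of 11 arrays. Its second kept probe set was called in none of the 6 comparisons in which the first was, with values from -0.31 to 0.26, so these results rest on 1 of 2 probe sets.

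Plxna2, another receptor for class 3 and class 6 semaphorins, was lower in the ear than around it at E9.5 to E10.5, with ear arrays between 41.8 and 64 and the others at 138 and 140 (-1.18 ± 0.21 log2, adjusted p = 1.64e-05). In the saccule it read 57.9 and 92.6 at E12.5, 52.8 and 62.5 at E13, 55.6 and 54.8 at E13.5, 52.8 and 18.9 at E14, 36.6 and 57.9 at E14.5, and 22.8 and 10 at E15. The low values were 1 array at E14 and both at E15, and the fitted fall was 1.25 ± 0.22 (adjusted p = 1.95e-05). With 64 added to the signal the change in the saccule was -0.66 and not called. Plxnb2 and Plxnc1 were called in no comparison.

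Among the ephrins, Efna1, a lipid-anchored ligand of EphA receptors, rose in every organ of the later ear. In the cochlea it read 37.3 and 16.7 at E10.5, 121 and 109 at E11, 85.4 and 113 at E11.5, 126 and 139 at E12, 176 and 183 at E13, 244 and 298 at E14, and 549 and 404 at E15. From E12 on, the mean of each stage lay above that of the stage before, and the fitted rise was 2.8 ± 0.17 log2 (adjusted p = 1.13e-16), or 2 ± 0.18 over E11 to E15 alone (adjusted p = 6.97e-12). In the saccule it rose by 1.42 ± 0.21, from 73.8 and 77.4 at E12.5 to 176 and 284 at E15 (adjusted p = 1.32e-06). In the utricle with ampullae it rose by 1.08 ± 0.21, from 81.5 and 144 to 303 and 291 (adjusted p = 0.000119), a call lost without utricle E12.5 replicate 1 (0.83).

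The second kept probe set of Efna1 gave 2.58, 1.83 and 1.23 for the same 3 rises, each of them called. Averaged over E12.5 to E15, the cochlea was higher than the saccule by 1.09 ± 0.1 (adjusted p = 1.01e-11). Before the rise, the ear of E9.5 to E10.5 was lower than the tissue around it by 1.05 ± 0.2 (adjusted p = 5.58e-05). For these 2 differences the second probe set gave 0.93 and -0.75, without a call. The other measured ephrins of class A, Efna2 and Efna4, were called in no comparison.

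Efnb2, a transmembrane ligand of EphB receptors and of Epha4, was higher in the cochlea at every stage at which organs were separated. From E10.5 to E12 the cochlear arrays read 771 and 760.3, 1256 and 1187, 1522 and 1424, and 1694 and 1990, and the vestibular ones lay between 382 and 451. No arrays overlapped, and the difference was 1.57 ± 0.1 log2 (adjusted p = 1.83e-15). From E12.5 to E15 the lowest, median and highest signals were 529.6, 1173 and 1560 in the cochlea, 301, 391 and 493 in the utricle with ampullae and 299.7, 356 and 509 in the saccule, again without overlap. The cochlea was higher by 1.34 ± 0.08 than the utricle and by 1.4 ± 0.08 than the saccule (adjusted p = 8.11e-17 and 2.41e-17).

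Within the cochlea Efnb2 was highest at E12 and was 1375 and 1173 at E12.5, 1560 and 1321 at E13, 1303 and 1173 at E13.5, 949.5 and 677 at E14, 959 and 1191 at E14.5, and 529.6 and 595 at E15. It fell by 1.09 ± 0.17 log2 over these later stages (adjusted p = 4.25e-06). Of its other 2 kept probe sets, 1 was called in the same direction in the 3 organ comparisons, with 1.27 to 1.5, and the other was not, with -0.26 to -0.11. From E11 to E15 the ear as a whole was higher than the tissue around it by 1.1 ± 0.15 (adjusted p = 4.82e-08), with no call in the other probe sets (-0.29 and 0.74).

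Efnb1, another transmembrane ephrin, was lower in the ear than around it by 1.64 ± 0.18 log2 at E9.5 to E10.5 and by 1.82 ± 0.16 at E11 to E15 (adjusted p = 1.91e-09 and 3.86e-12). The 8 ear arrays of the earlier window ran from 142 to 270.3 against 785 and 606, and the 48 of the later one from 87.1 to 437 against 755 and 1036. Neither window had overlapping arrays, and its other kept probe set gave -2.32 and -1.77. Efnb3 was lower in the ear by 1.13 ± 0.1 at E9.5 to E10.5 (adjusted p = 1.86e-11), with ear arrays between 87.2 and 116 against 229.5 and 231.

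Of the Eph receptors, Epha7, a receptor of class A ephrins, was the only 1 of the 7 measured EphA genes to be called between organs. From E12.5 to E15 its signal had a lowest, median and highest value of 428, 515 and 725 in the cochlea, 66.5, 103 and 225 in the utricle with ampullae, and 165, 206 and 324 in the saccule. The cochlea did not overlap the other organs. It was higher by 2.17 ± 0.11 log2 than the utricle and by 1.21 ± 0.11 than the saccule (adjusted p = 2.61e-19 and 1.02e-11), and both other kept probe sets were called in the same direction, with 1.38 to 2.1.

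In the vesicle Epha7 read 183 and 224 at E9.5 and 167 and 244 at E10, and in the cochlea 243 and 354 at E10.5, 338 and 486 at E11, and 484 and 505 at E12.5. The non-inner ear arrays read 109 and 108 at E9, 73.2 and 97.8 at E9.5 to E10.5, and 92.4 and 59.7 at E11 to E15. The ear was higher by 1.18 ± 0.22 log2 at E9.5 to E10.5 and by 1.58 ± 0.2 at E11 to E15 (adjusted p = 4.58e-05 and 1.32e-08). The other 2 kept probe sets of Epha7 gave 0.5 and 0.97 in the earlier window, without a call. In the later window they gave 0.81 and 1.07, with 1 of them called. In the utricle with ampullae the 2 youngest arrays, at 225 and 144, were the highest and the 2 oldest read 66.5 and 89.6 (-0.76 ± 0.23, not called).

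Among EphB receptors, which bind class B ephrins, Ephb4, known as the venous partner of Efnb2, fell in the vestibular organ by 1.47 ± 0.23 log2 (adjusted p = 1.32e-05). The vestibular arrays read 548 and 475 at E10.5, 351 and 406 at E11, 69.3 and 93.8 at E11.5, and 284 and 227 at E12, and the cochlear ones of E11.5 also read 64 and 89.7. Without the low E11.5 arrays the change was -0.94 ± 0.24 (adjusted p = 0.00669), just under the size limit. Over E11 to E12 alone, without the E10.5 arrays of the shorter dispase time, it was -0.54 ± 0.24 (adjusted p = 0.139). Ephb3 was called in the non-inner ear tissue alone, higher by 1.51 ± 0.18 at E11 to E15 than at E9 (adjusted p = 4.65e-09). Between organs Ephb3 differed most for the cochlea minus the vestibular organ, at -0.77 ± 0.09, under the size limit.

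In the non-inner ear tissue, the 13 genes that were higher at E11 to E15 than at E9 span receptors and ligands. Besides Robo1, Plxna3 and Ephb3 they were Unc5c (1.57), Unc5b (1.39), Sema3a (1.35), Efnb1 (1.24), Efna1 (1.21), Sema3b (1.15), Nrp2 (1.14), Sema4g (1.13), Slit3 (1.1) and Epha4 (1.04). For Unc5c the 2 arrays read 71.1 and 52.8 at E9 and 202 and 226 at E11 to E15 (SE 0.22, adjusted p = 2.65e-07). For Plxna3, where 1 of the 2 E9 arrays was at the floor, they read 26.7 and 10, then 104 and 101 (1.83 ± 0.33, adjusted p = 1.57e-05). Both other probe sets of Sema3b had the opposite sign here, -0.55 and -0.22. In the same comparison 10 of 13 mesenchymal and 10 of 11 neuronal markers were higher and 6 of 12 epithelial markers lower, and the part of that change of tissue in these rises was not tested.

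In the organ comparisons the members moved beside other cell type markers. Hair cell markers were lower in the cochlea for 5 of 10 genes against the utricle with ampullae and for 6 of 10 against the saccule. Their summed signal over E12.5 to E15 ran from 1024 to 2495 in the cochlea, 804 to 7120 in the utricle and 1238 to 11410 in the saccule. Against the utricle the cochlea also had 3 of 11 neuronal markers lower and 1 higher, and 3 of 13 mesenchymal markers higher. In that comparison 1 of 7 cartilage and 1 of 12 epithelial markers were lower in the cochlea. Against the saccule the cochlea also had 3 of 11 neuronal markers and 4 of 13 mesenchymal markers lower and 2 mesenchymal markers higher, and 3 of 9 hindbrain and neural tube and 2 of 5 red blood cell markers lower. The saccule, when set against the utricle with ampullae, had 3 of 9 hindbrain and neural tube markers higher, 2 of 13 mesenchymal markers higher and 2 lower, 1 of 10 hair cell and 1 of 5 red blood cell markers higher, and 2 of 12 epithelial markers lower. Over E12.5 to E15 the summed signal of the hindbrain and neural tube markers was 1981 to 3608 on saccule arrays. It was 731 to 1475 on utricle arrays and 572 to 1222 on cochlear arrays, both below every saccule array. Of the 9 endothelial markers, 0 were called in limma in each of the 3 organ comparisons, and against the saccule 2 were higher and 6 lower in the cochlea at an unadjusted p under 0.05. At E10.5 to E12, 2 of 13 mesenchymal markers were higher in the cochlea than in the vestibular organ, and 1 of 12 epithelial markers was lower. There 1 of 11 neuronal and 1 of 8 otic epithelial markers were higher in the cochlea, and 1 of each was lower. The part of any of these markers in the organ differences, the low Slit3 and Unc5b of the saccule among them, was not tested.

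Other guidance genes outside these families were followed through 3 lists, of co-receptors and other receptors (15 of 21 measured), other ligands (10 of 16) and signalling proteins of the growth cone (38 of 56). Among the receptors, Nrcam, a cell adhesion molecule that joins neuropilin complexes, rose by 2.43 ± 0.18 log2 in the cochlea, 2.3 ± 0.22 in the utricle with ampullae and 1.38 ± 0.22 in the saccule. In these comparisons 1, 3 and 2 of the 15 receptors rose, and 1 fell in the saccule. Over all genes, 8.06, 5.04 and 4.59 percent rose, and 2.49 percent fell in the saccule. Chl1, another adhesion molecule of this family, was lower in the cochlea than in the vestibular organ (-1.52 ± 0.12), the utricle (-1.1 ± 0.1) and the saccule (-1.13 ± 0.1), the only 1 of 15 receptors lower in each comparison. The shares of all genes lower there were 0.877, 1.87 and 2.11 percent.

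Of the 10 other ligands, Wnt5a, which guides axons through Ryk and Frizzled receptors, rose by 2.1 ± 0.16 log2 in the cochlea, with 2 of 10 up and 1 down. Over all genes, 8.06 percent went up and 6.89 percent down in that comparison. Cxcl12, a chemokine that attracts migrating cells, was higher in the saccule than in the utricle with ampullae by 2.37 ± 0.07 and lower in the cochlea than in the saccule by 1.47 ± 0.07. In each of these comparisons 1 of 10 ligands was higher and 1 lower, the other being Wnt5a. The shares of all genes were 1.2 percent higher and 1.52 percent lower in the first, and 1.67 and 2.11 percent in the second. Ntng1, a membrane-bound relative of netrin, was higher in the cochlea than in the vestibular organ by 1.92 ± 0.13. It was the only 1 of 10 called there, where 1.41 percent of all genes were called.

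Of the 38 signalling proteins, Crmp1, a cytosolic mediator of semaphorin 3A signalling, was lower in the ear than around it, with differences of -1.77 ± 0.26, -3.41 ± 0.21 and -2.58 ± 0.19 log2 in the 3 windows. In these windows 3, 4 and 3 of the 38 were lower, and 1 and 4 were higher in the windows from E9.5 and from E11. Over all genes, 3.23, 4.68 and 7.14 percent were lower, and 3.72 and 8.47 percent were higher from E9.5 and from E11. Dpysl3, a related mediator, was lower than in the utricle with ampullae by 1.73 ± 0.09 in the cochlea and 1.23 ± 0.09 in the saccule. Mical1, an enzyme that acts on actin below plexins, was higher in the cochlea than in the utricle (1.28 ± 0.08) and in the saccule (1.13 ± 0.08). Of the 38, 1 was higher and 1 lower against the utricle, and Mical1 was the only 1 called against the saccule. Against the utricle 1.2 percent of all genes were higher and 1.87 percent lower, and against the saccule 3.77 percent were called.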

How the data were processed

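The authors deposited 1 table of linear probe set intensity for 64 Affymetrix arrays, made with MAS5 per the submitters' processing notes (version and scaling target not given in the sources used here). From it, values were quantile normalized, since 2 percent trimmed means ran from 224.7 to 355.3 over arrays, and taken as log2(signal + 16). Of 22626 probe sets, 20380 had 1 symbol in the platform annotation, 691 several and 1555 none. Probe sets at or above the array's median on at least 2 arrays were kept, and each gene was read from the kept probe set of highest mean signal. limma 3.58.1 (R 4.3.3) fitted all 32 groups together (32 residual degrees of freedom, eBayes with trend), two-sided, with Benjamini-Hochberg adjustment over 9352 genes. A change over stages is the slope over group means times the days spanned. The procedure was tested on simulated data.

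Named genes are the measured members called in a comparison, with others of their families beside them. The members and lists were chosen with earlier results of these data known. Arrays of a group are pools from different litters, so p-values measure the spread between pools. Same-numbered arrays of a stage deviated together in 19 of 23 tissue pairs (correlation of deviations over 0.1, range -0.499 to 0.571), and in all 6 stages for the cochlea with the utricle. Alternatives were the deposited scaling, pseudocounts of 1 and 64, other filters, other probe sets, left-out arrays and stages and the replicate block; the rule that every kept probe set be called was added after seeing the data.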

Additional observations from a re-analysis of the deposited data

Results flagged for a closer look

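For 4 of the 45 measured genes the change from E12.5 to E15 differed between the cochlea and the utricle with ampullae, by the test of that difference itself, where 3.86 percent of all genes were called. For Slit3 the difference was 1.06 ± 0.22 log2 (adjusted p = 0.00113 in limma), with changes of 2 in the cochlea and 0.94 in the utricle, and leaving out any 1 of 3 arrays took it below 1 (lowest 0.88). For Nrp2 it was -1.98 ± 0.41 (adjusted p = 0.0012), with -1.63 in the cochlea and 0.35 in the utricle. For Sema5a, the membrane semaphorin, it was -1.47 ± 0.33 (adjusted p = 0.00288), with -0.85 in the cochlea and 0.62 in the utricle. For Robo1 it was 2.08 ± 0.55 (adjusted p = 0.013), with 1.25 in the cochlea and -0.83 in the utricle, and it was lost without cochlea E15 replicate 2 (1.72) or utricle E12.5 replicate 1. In the same comparison 6 of 10 hair cell markers rose less in the cochlea, whose part in these differences was not tested.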

How the results depend on the processing

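For each comparison the up to 3 largest positive and up to 3 largest negative differences among the called members were followed, 57 values in all. The smaller calls, nearer the size limit, are outside these counts. Of the 57 values, 40 were called in every alternative other than leaving out an array, 17 were not in at least 1, and 0 changed sign, with each gene read from its probe set of highest mean. Other probe sets did turn signs: of 48 calls of genes with several kept probe sets, 11 had another set of opposite sign, in Efnb2, Plxna3, Sema3b and Unc5c. With a pseudocount of 64 the members called went from 10 to 4 (ear against surroundings, E9.5 to E10.5), 13 to 7 (surroundings over time), 9 to 3 (cochlea over time), 3 to 1 (utricle over time), 8 to 5 (cochlea against utricle), 9 to 5 (saccule against utricle) and 4 to 2 (difference of slopes). Requiring every kept probe set to be called, a rule chosen after seeing the data, left 2 (ear from E9 to E10), 5, 1 and 3 (cochlea, utricle and saccule over time), 0 (cochlea against vestibular organ), 5 (cochlea against utricle), 3 (cochlea against saccule) and 4 (saccule against utricle), and reading each probe set alone gave 7 for the difference of slopes. The cochlea against the vestibular organ, with 2 called, gave 7 with the deposited values, 4 with a pseudocount of 1, 4 over E11 to E12 and 5 without E11.5. The shares of all genes called were 2.33, 2.17, 1.44 and 1.66 percent, beside 1.41 percent in the main fit. Without E14 the cochlea over time gave 5, where 14.1 percent of all genes were called in place of 14.9. Over E11 to E12 the vestibular organ gave 1 in place of 3, where 2.54 percent of all genes were called in place of 4.02.

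Leaving out 1 array gave 7 to 11 (cochlea over time), 5 to 6 (cochlea against saccule), 7 to 8 (cochlea against utricle), 1 to 3 (cochlea against vestibular organ), 5 to 5 (ear from E9 to E10), 6 to 9, 9 to 11 and 5 to 6 (ear against surroundings at E11 to E15, E9.5 to E10.5 and E9), 6 to 7 (saccule over time), 8 to 10 (saccule against utricle), 11 to 13 (surroundings over time), 3 to 4 (difference of slopes), 2 to 4 (utricle over time) and 3 to 3 (vestibular organ over time). The value 1 came without cochlea E10.5 replicate 2. Of the 57 values, 50 were called without any 1 array; the fall of Unc5c in the cochlea (-1.16 to -0.92) was lost without cochlea E10.5 replicate 1, E14 replicate 2 or E15 replicate 2. With the replicate block no call of a member changed in any of the 14 comparisons (5, 10, 6, 13, 5, 9, 3, 3, 6, 2, 8, 5, 9 and 4 called). Signal near the floor and 2 arrays a group limit what could be called.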
